A study of Homo sapiens with 4 samples.

Results

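Wide open regions of RKO chromatin are described here, meaning stretches of at least 1000 bp in which every one of 4 ATAC-seq libraries had at least 1 peak. They were selected on measured values: peaks of the 4 lists on chromosomes 1 to 22 and X were merged when they shared 1 bp or more, and a merged region was kept when all 4 lists contributed a peak and the distance from its first to its last base reached 1000 bp. The merge gave 20450 regions, of which 3395 were called in all 4 lists. Of these, 1079 were wide, which is 5.28% of all regions and 31.8% of those called in all 4 lists. The 2316 narrower regions called in all 4 lists served as the comparison.

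RKO is a human colon cancer cell line. Cells were infected with lentivirus to express stably either a control shRNA or shCHD7-2, an shRNA against CHD7, and each group had 2 libraries made from cell nuclei. The comparison asks how chromatin accessibility differs when CHD7 is depleted. In ATAC-seq the Tn5 transposase inserts adapters where DNA is not wrapped in nucleosomes, so that sequenced fragments pile up over open chromatin. The labels do not say if replicates were separate cultures, and the spread between them may be technical only. A single shRNA was used, and the depletion of CHD7 could not be checked in peak lists.

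CHD7 is an ATP-dependent chromatin remodeller that slides nucleosomes along DNA and binds many promoters and enhancers. Mutations of the gene cause CHARGE syndrome. An open region longer than the linker between nucleosomes is one where nucleosomes have been moved or evicted, and long open stretches are typical of active promoters, of enhancers bound by several factors and of neighbouring elements that run into each other. The gene, promoter and sequence of each region were not analysed here, because the reference tables at hand are of another genome build than hg19, to which the peaks belong.

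The lists held 13257 and 12092 peaks for control replicates 1 and 2, and 7199 and 8715 for shCHD7-2 replicates 1 and 2. For each peak, the number of reads stacked at its summit (the pileup) and the number expected there by the peak caller (the local background) were recovered from the deposited values. The commonest local background in a list, called the library background below, was 0.916 and 0.843 reads in the control lists and 1.40 and 1.62 reads in the shCHD7-2 lists, so the group mean was 1.72 times higher in shCHD7-2. Depth, library quality and the knockdown follow the same division of the 4 libraries and cannot be told apart.

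Most wide regions lay not far above the limit of 1000 bp. Their median width was 1172 bp, with quartiles of 1079.5 and 1308.5 bp, and the widest reached 2102 bp. Together they spanned 1317 kb. There were 178 regions of 1000 to 1049 bp just inside the limit and 193 of 950 to 999 bp just outside it, and no break in the distribution of widths marked the limit. The 3 narrowest named members were exactly 1000 bp long, among them chr1:168147844-168148843 with 24, 26, 15 and 16 reads at its summit in control 1, control 2, shCHD7-2 1 and shCHD7-2 2. The widest region left out, chr1:182360154-182361152, was 999 bp long and had 22, 23, 16 and 22 reads in the same order.

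**Figure D1:**
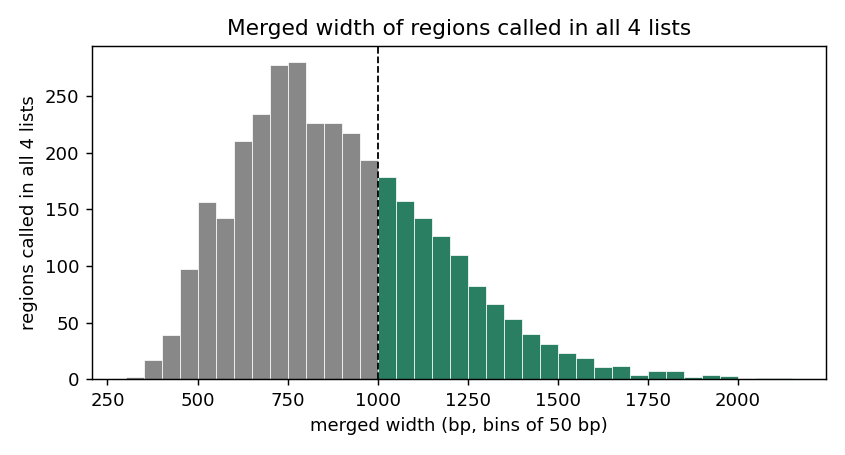
Histogram of merged width in bp (x axis, bins of 50 bp) for the 3395 regions called in all 4 lists (y axis, number of regions), with the limit of 1000 bp as a dashed line and the 1079 wide regions in green. The bins on either side of the line hold 193 and 178 regions, so the wide regions are the upper tail of 1 continuous distribution.

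The merged width was set more often by the control lists. Each region has a left and a right edge, and of the 2158 edges 1552 were set by a control list alone, 591 by a shCHD7-2 list alone and 15 by both groups. The span of the control lists alone had a median of 1125 bp and reached 1000 bp in 904 regions, whereas the span of the shCHD7-2 lists alone had a median of 964 bp and reached 1000 bp in 486 regions. In 557 regions (51.6%) the shCHD7-2 span lay inside the control span on both sides, and the reverse held in 78 (7.23%). In the narrower regions these shares were 45.6% and 11.2%. These values are descriptions without a test, since the width chose the regions and the control lists are longer.

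Peaks filled a smaller part of the wide regions in the shCHD7-2 lists. The median number of bases covered per region was 1020 in control 1, 987 in control 2, 707 in shCHD7-2 1 and 770 in shCHD7-2 2. As a share of the merged width these medians were 87.4%, 83.6%, 59.8% and 64.9%, which gives 85.5% ± 2.67 for control and 62.4% ± 3.60 for shCHD7-2 (SD, n = 2). The corresponding difference was -23.1 percentage points in wide and -16.3 in narrower regions. Both shCHD7-2 lists covered fewer bases than both control lists in 641 wide regions (59.4%), where the background over all regions called in 4 lists was 50.3%, and more bases in 48 (4.45%), where the background was 7.22%. As this measure shares its source with the rule, nothing is read from these counts.

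The shortfall was not confined to the edges. At the middle of the wide regions (50.5% of the way along), 96.1% and 94.9% of regions had a control peak and 79.6% and 83.1% had a shCHD7-2 peak. In narrower regions the same position was covered in 97.0% and 96.7% of regions in the control lists and in 91.5% and 94.3% in the shCHD7-2 lists. Near the left edge (10.5%), wide regions were covered in 72.6%, 69.9%, 41.3% and 47.1% in the order control 1, control 2, shCHD7-2 1 and shCHD7-2 2. The middle was thus covered less often by shCHD7-2 peaks in wide than in narrower regions, a difference described without a test. The edges that define the middle were set more often by the control lists, so nothing further is read from it.

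**Figure D2:**
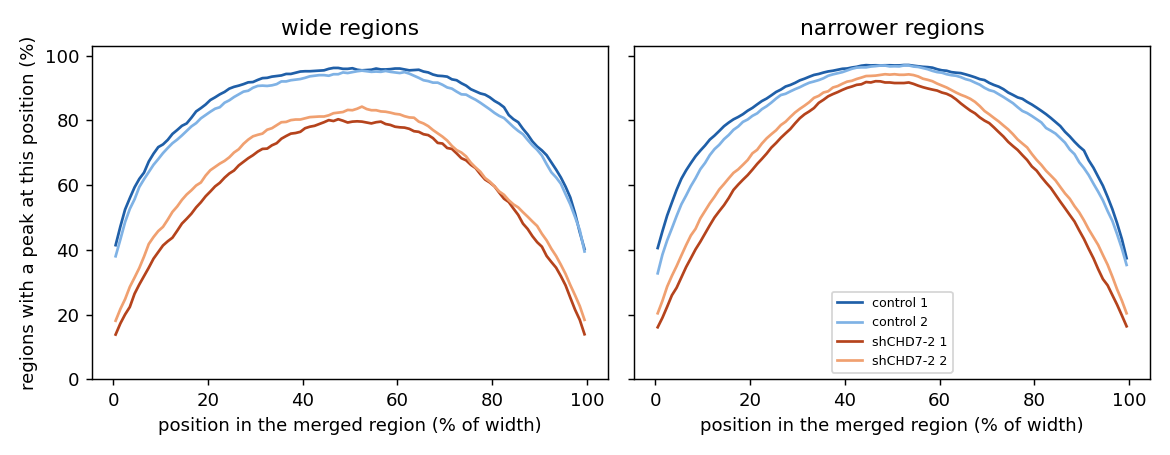
Share of regions with a peak (y axis, %) at each position along the merged region (x axis, % of its width) for the 4 libraries, in the 1079 wide regions (left) and the 2316 narrower ones (right). In the middle of wide regions the control lines reach 94.9% to 96.1% and the shCHD7-2 lines 79.6% to 83.1%, while in narrower regions all 4 lines exceed 91%.

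Counted by base, 42.0% of the wide sequence was covered in all 4 lists. A further 18.0% was covered in both control lists and 1 shCHD7-2 list, against 3.20% in both shCHD7-2 lists and 1 control list. Bases covered in both control lists and in neither shCHD7-2 list made up 10.5%, and those covered in both shCHD7-2 lists and in neither control list 0.845%. In narrower regions the last pair of shares was 7.37% and 1.46%. Bases covered in a single list made up 18.3% of the wide sequence.

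In most wide regions every list had a single peak, but the merged width often joined peaks of different lists. The span of 1 list alone reached 1000 bp in 615 regions for control 1 and 562 for control 2. For shCHD7-2 1 it did so in 214 regions and for shCHD7-2 2 in 271. In 814 of the 1079 regions each list had 1 peak, and in 265 (24.6%) at least 1 list split the region into 2 or more peaks, compared with 68 of the narrower regions (2.94%). The number of split regions was 61 in control 1, 98 in control 2, 85 in shCHD7-2 1 and 102 in shCHD7-2 2, so the groups overlapped. Splitting was seldom shared: 197 regions were split in exactly 1 list, 11 in both control lists alone, 11 in both shCHD7-2 lists alone, and only chr8:97273403-97275390 in all 4. Over the 353 pairs of neighbouring peaks of the same list, the summits were a median of 591 bp apart (quartiles 463 and 808 bp) with a gap of 208 bp between the peaks.

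The 10 widest regions showed several arrangements. The widest, chr9:73033868-73035969, was covered over 1706 and 1264 bp in the control lists and over 537 and 856 bp in the shCHD7-2 lists. Its control summits lay to the left of the centre, with 39 and 30 reads. The only peak of shCHD7-2 1 lay to the right, with 19 reads, and shCHD7-2 2 had a peak on each side, the stronger of them on the left with 20 reads. The shCHD7-2 libraries thus differed from each other in the part of this region that was called. The second, chr9:6757015-6759066, had 45, 43, 31 and 25 reads, and here the strongest summit of every list lay in the left part.

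The third, chr8:97273403-97275390, consisted of a pair of neighbouring peaks in each list and had 46, 39, 35 and 36 reads. In chr6:154830768-154832735 every list had 1 long peak, with 37, 37, 27 and 32 reads. In chr5:131629176-131631137 the control lists covered 1789 and 1336 bp and the shCHD7-2 lists 429 and 340 bp, with 28, 31, 15 and 10 reads. Among the 10 widest, the pileup was lower in both shCHD7-2 lists in 9. The exception in reads was chr5:169010299-169012202, with 25, 30, 29 and 24. Over library background its values were 27.3, 35.6, 20.7 and 14.8, lower in both shCHD7-2 lists.

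**Figure D3:**
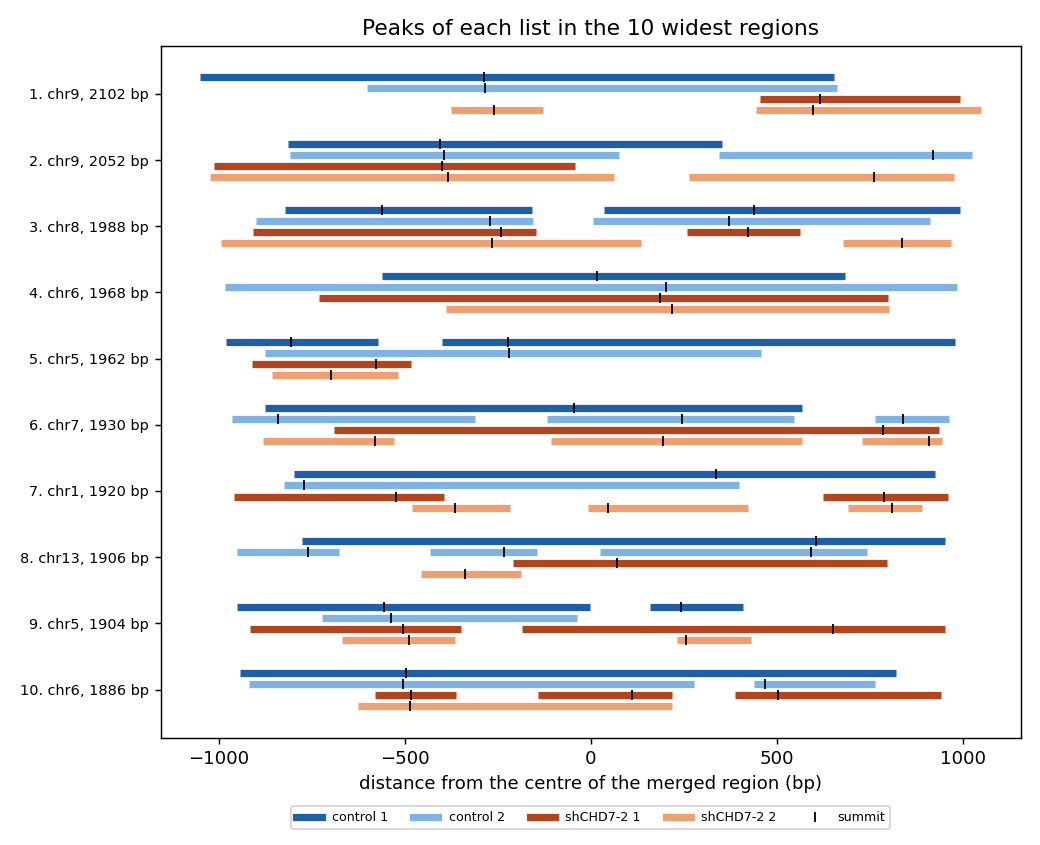
Peaks of each list (bars, 1 colour per library) and their summits (ticks) in the 10 widest regions, against distance from the centre of the merged region in bp (x axis). The widest region, of 2102 bp, has both control summits left of the centre, a shCHD7-2 1 summit right of it and shCHD7-2 2 summits on both sides, and the third has 2 peaks in every list.

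The position of the strongest summit varied between libraries. The strongest summits of control 1 and control 2 lay a median of 43 bp apart, and those of shCHD7-2 1 and shCHD7-2 2 lay 101 bp apart. Between a control and a shCHD7-2 library the median ranged from 62 to 92 bp, that is, within the range set by the replicate pairs. Summits were more than 200 bp apart in 25.02% of wide regions for the control pair and in 38.8% for the shCHD7-2 pair. In narrower regions the median distances of these pairs were 38 and 51.5 bp, and 16.8% and 21.2% of summits were more than 200 bp apart. The width that chose the regions also bounds these distances, so wide and narrower regions are not compared on them. The strongest summit lay in the middle 50% of the width in 84.7% and 83.4% of wide regions in the control lists and in 78.7% and 80.8% in the shCHD7-2 lists.

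Wide regions were less enriched at the summit after CHD7 knockdown. By the rule, all 1079 had a value in each list. Fold enrichment, the ratio of the pileup to the local background with 1 added to each, had a median over the 1079 regions of 7.66 in control 1, 7.56 in control 2, 5.90 in shCHD7-2 1 and 5.84 in shCHD7-2 2. Neither shCHD7-2 median reached either control median. The group means were 7.61 ± 0.0750 and 5.87 ± 0.0394 (SD, n = 2), so that control was 1.297 times higher. On the log2 scale the difference was -0.38, larger than the spread between replicates. With the 6 ways to divide the libraries, an exact two-sided permutation test returned p = 0.333, the smallest p that 2 against 2 allows, so this design cannot pass 0.05. The lists were called separately and no scale common to them has been established.

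The number of reads at the summit was lower in the shCHD7-2 lists although their library background was higher. The median pileup was 30 reads in control 1 (95% Poisson interval 20.2 to 42.8), 28 in control 2 (18.6 to 40.5), 18 in shCHD7-2 1 (10.7 to 28.4) and 20 in shCHD7-2 2 (12.2 to 30.9). These intervals are for a single region with that many reads, they assume independent reads, and they cover counting error only. Replicates varied less than such counts would, with a chi-square per degree of freedom below 1. In units of the library background the median pileup was 32.8 and 33.2 in control and 12.9 and 12.3 in shCHD7-2. The means were 33.0 ± 0.327 and 12.6 ± 0.375 (SD, n = 2), a log2 difference of -1.39 with control 2.62 times higher, and both shCHD7-2 libraries were below both control libraries (exact two-sided permutation test, p = 0.333).

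The local background, by which fold enrichment is divided, differed as well. Relative to the library background, its median in wide regions was 3.19 in control 1, 3.23 in control 2, 1.60 in shCHD7-2 1 and 1.59 in shCHD7-2 2. On the log2 scale this was -1.01, against -0.63 in narrower regions. A local background above that of the library may include reads of the wide region itself. Fold enrichment in wide regions may thus be divided in part by their own signal. Reads of the region and of its flanks were not told apart.

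Rank within a list gave the same direction. Ordered by -log10 p, the strongest peak of a wide region stood at a median percentile of 90.0 in control 1, 89.3 in control 2, 76.1 in shCHD7-2 1 and 80.5 in shCHD7-2 2. The means were 89.6 ± 0.489 and 78.3 ± 3.07 (SD, n = 2), a difference of -11.3 points (exact two-sided permutation test, p = 0.333), with both shCHD7-2 libraries lower. In narrower regions the medians were 79.0, 76.5, 67.1 and 70.6, a difference of -8.89 points. Ranks depend on the length of a list, and with 7199 peaks taken from each list the difference in wide regions was -4.84 points. Its size also depended on how width was measured, and the control lists set the merged width more often. By the shCHD7-2 span alone it was -6.87 points, by mean bases covered -4.51 and by the control span alone -11.9. High control ranks are thus partly built into the choice of regions.

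**Figure D4:**
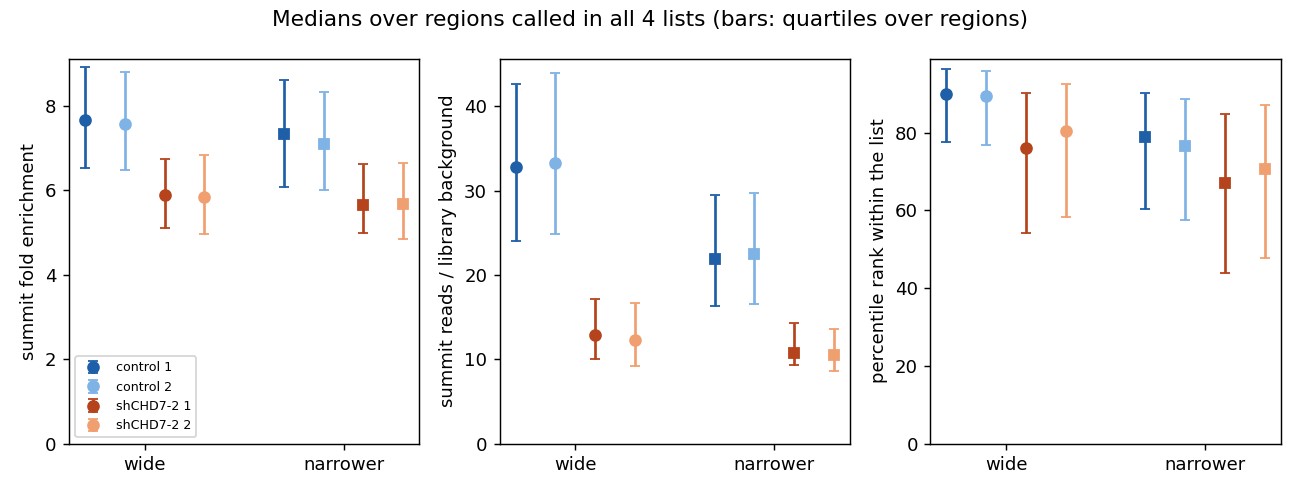
Median over regions (points) with quartiles over regions (bars) of summit fold enrichment, summit reads over library background and percentile rank within the list (y axes), for wide and narrower regions in the 4 libraries. The shCHD7-2 medians lie below the control medians in all 3 panels. In summit reads over library background, wide regions exceed narrower ones by more in the control than in the shCHD7-2 libraries (32.8 and 33.2 against 21.8 and 22.5 in control, 12.9 and 12.3 against 10.7 and 10.5 in shCHD7-2).

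Nearly all wide regions moved in the same direction, as did most narrower ones. Region by region, the mean log2 fold enrichment of shCHD7-2 minus that of control had a median of -0.36 and ranged from -1.15 to 0.37. In wide regions it was below 0 in 1023 (94.8%), against 86.9% of narrower regions. Its SD over regions was 0.223. Single regions carry much replicate noise on this scale, since the difference between the control replicates had an SD over regions of 0.241 and that between the shCHD7-2 replicates an SD of 0.276. In units of the library background the median was -1.32 and 1077 regions (99.8%) were below 0, against 94.6% of narrower regions. On this scale the SD over regions, 0.436, exceeded the SDs between control replicates, 0.316, and between shCHD7-2 replicates, 0.341. The control lists set the width more often, so nothing is read from the larger shares below 0 in wide regions.

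Fold enrichment was lower in both shCHD7-2 lists than in both control lists in 808 wide regions (74.9%, 95% Wilson interval 72.2% to 77.4%). The background over all 3395 regions called in 4 lists was 66.1%, and the share in narrower regions was 61.96% (59.96% to 63.9%). It was higher in both shCHD7-2 lists in 12 wide regions (1.11%), against a background of 2.77%. In units of the library background, 1053 wide regions (97.6%) were lower in both shCHD7-2 lists, where the background was 89.3%, and 0 were higher in both, where the background was 1.09%. The higher library background of the shCHD7-2 lists enters each of these values. By percentile rank, 539 (49.95%) were lower against a background of 41.3% and 76 (7.04%) higher against 13.9%. These ranks come from lists of unequal length, and nothing is read from their counts. On the other 2 scales, the width that chose the regions was set more often by the control lists, and tall peaks are wider. Nothing is therefore read from the differences between wide regions and the background. The intervals cover counting error over regions and no variation between cultures.

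**Figure D5:**
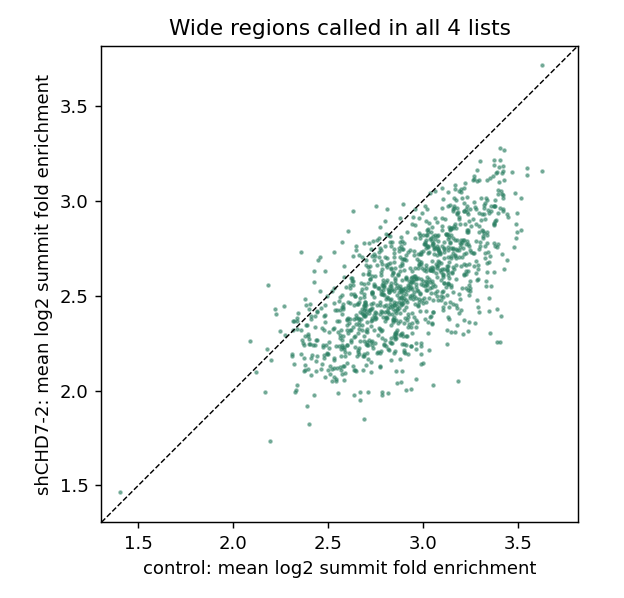
Mean log2 summit fold enrichment of the shCHD7-2 libraries (y axis) against that of the control libraries (x axis) for the 1079 wide regions (points), with the line of equality dashed. Below the line lie 1023 points (94.8%), and the median distance from it is -0.36 on the log2 scale. Of the narrower regions, which are not drawn, 86.9% had a change below 0.

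On the scale of reads, the values of wide regions were more alike between replicates than between groups. Pearson's r of log2 pileup was 0.857 between the control replicates and 0.811 between the shCHD7-2 replicates, and 0.612 to 0.644 between libraries of different groups. For log2 fold enrichment r was 0.703 and 0.586 within groups and 0.525 to 0.600 between groups, so on that scale the shCHD7-2 pair was within the range between groups. These are descriptions across 1079 regions, which are not independent replicates and share the depth of their library. Among the narrower regions r of log2 pileup between groups was lower, from 0.337 to 0.378.

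Whether the difference is of another size in wide than in narrower regions depended on the scale. In log2 fold enrichment, wide regions exceeded narrower ones by 0.064 and 0.094 in the control lists and by 0.060 and 0.042 in the shCHD7-2 lists. The change in this gap, -0.028, was about as large as the spread between replicates (exact two-sided permutation test, p = 0.333), and its sign turned under 4 alternative settings. In log2 pileup over library background, the gap was 0.58 and 0.56 in control and 0.26 and 0.23 in shCHD7-2. This change of -0.32 exceeded the replicate spread, with both shCHD7-2 libraries below both control libraries (exact two-sided permutation test, p = 0.333). It kept its sign under each alternative that was run, but its size depended on which lists set the width. By the control span alone it was -0.42, and by the shCHD7-2 span alone -0.14. The merged width that formed the classes was set more often by the control lists, so no conclusion is drawn from this change.

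Wide regions were taller in control than narrower ones, so regions of the same control height were also set side by side in pileup over library background. Among regions with a mean control pileup of 20 to under 30 reads, the median log2 change in pileup over library background was -1.30 in 373 wide regions and -1.32 in 760 narrower ones. At 30 to under 40 reads it was -1.43 (293 regions) and -1.46 (248 regions), and at 40 to under 60 reads -1.48 (183 regions) and -1.44 (94 regions). At 10 to under 20 reads the medians were -1.02 (193 regions) and -0.74 (1136 regions). The medians of wide and narrower regions were thus close in the 3 taller classes and apart in the lowest class, which holds 1136 of the 2316 narrower regions.

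On the scale of fold enrichment, matching by control height changed the picture in the opposite sense. At 20 to under 30 control reads the median log2 change in fold enrichment was -0.36 in wide and -0.46 in narrower regions, at 30 to under 40 reads -0.39 and -0.45, and at 40 to under 60 reads -0.41 and -0.46. Wide regions thus fell less than narrower ones of equal control height on this scale in these 3 classes, and slightly more at 10 to under 20 reads (-0.25 and -0.22). The control values that form the classes also enter the change, so these are descriptions without a test.

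The size of a fall was bounded by the rule. A region had to be called in both shCHD7-2 lists, where the lowest summit of a wide region held 8 reads, so a region that fell further is not among the members. In 65 wide regions (6.02%) and 254 narrower ones (10.97%) a shCHD7-2 summit held 10 or fewer reads. Regions were also chosen on the libraries of 1 replicate number and read in the other pair. Of 767 regions that were wide and called in control 1 and shCHD7-2 1, 765 (99.7%) had a peak in control 2 and 720 (93.9%) in shCHD7-2 2. Of 759 chosen on control 2 and shCHD7-2 2, 757 (99.7%) had a peak in control 1 and 687 (90.5%) in shCHD7-2 1. Where both libraries that had not chosen the regions had a peak, the median log2 change in fold enrichment was -0.34 in each case, and it was below 0 in 646 of 718 regions (90.0%) and in 605 of 685 regions (88.3%). Regions without a peak in the second shCHD7-2 list have no value here, so these changes remain bounded. Each choosing pair again joined a control list with a shorter shCHD7-2 list, so this reading does not remove the part of the control lists in the width. The shares with a peak may also follow list length, and nothing is read from their difference between groups. Narrower regions were not read in this way, so these shares have no background.

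Fold enrichment fell with width among the wide regions while pileup and local background rose. The 335 regions of 1000 to 1099 bp had median fold enrichments of 7.89 and 7.91 in control and 5.86 and 5.99 in shCHD7-2, and the 94 regions of 1500 to 2102 bp had 6.86 and 6.78 in control and 5.49 and 5.50 in shCHD7-2. Over the same classes the median pileup went from 27 and 26 to 36 and 34 reads in control and from 17 and 19 to 21 and 23.5 reads in shCHD7-2. The local background in control 1 went from 2.58 to 4.21 reads. The median log2 change in fold enrichment was -0.38 in the narrowest and -0.28 in the widest class (SD over single regions 0.240 and 0.173), and in units of the library background it was -1.32 and -1.34.

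The strongest wide regions, taken as the 10 with the highest mean percentile over the 4 lists, stood above percentile 99 in each library. The first, chr6:58777983-58779492, lies beside the centromere of chromosome 6 and had 99, 104, 132 and 135 reads at its summit in control 1, control 2, shCHD7-2 1 and shCHD7-2 2. It was one of the regions with more reads in shCHD7-2, but over library background its values were 108, 123, 94.2 and 83.2, a log2 change of -0.38. The local background there was also high, at 12.04, 11.6, 17.4 and 18.7 reads.

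The second, chr8:93977237-93978747, had 91, 85, 64 and 63 reads and fold enrichments of 9.94, 11.1, 8.81 and 7.66. The region chr4:166033416-166034619 had 78, 71, 44 and 45 reads and fold enrichments of 12.6, 12.1, 8.79 and 9.06, so that control was 1.39 times higher. In both regions the groups did not overlap. In chrX:149107803-149108965, with 80, 58, 56 and 59 reads and fold enrichments of 9.76, 8.29, 8.46 and 8.52, the groups overlapped in fold enrichment.

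The 5 deepest falls in fold enrichment left between 9 and 15 reads at the summit in the shCHD7-2 lists, from control summits of 24 to 70 reads. In chr7:7679600-7680790 the summit held 47 reads (95% Poisson interval 34.5 to 62.5) and 48 reads in the control lists and 11 reads (5.49 to 19.7) in each shCHD7-2 list. Its fold enrichment was 10.6 in both control lists, 5.00 in shCHD7-2 1 and 4.57 in shCHD7-2 2, a log2 change of -1.15. It stood at percentiles 99.0 and 99.4 in control and 35.6 and 28.7 in shCHD7-2. The local background fell to the library background in both shCHD7-2 lists, from 3.52 and 3.62 reads in control to 1.40 and 1.62 reads.

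In chr1:185125522-185126890 the pileup went from 70 and 56 reads to 11 and 11, a log2 change in pileup over library background of -3.29, with control 9.77 times higher, which was the lowest value among the wide regions. The region chr9:130340961-130341984 had 31, 26, 9 and 10 reads and a log2 change in fold enrichment of -1.13. The region chr18:61089319-61090413 had 33, 35, 9 and 15 reads and a change of -1.05, and chr4:88141186-88142465 had 28, 24, 9 and 12 reads and a change of -1.02. The groups did not overlap in any of these 5 regions, which were chosen as the lowest values, so their size is a description.

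The 5 highest changes in fold enrichment without overlap were small and came with lower pileups over library background. In chr5:172385512-172386563 fold enrichment was 4.18, 4.94, 6.16 and 5.62, a log2 change of 0.37. Its summit held 19, 16, 17 and 19 reads, which is 20.7 and 19.0 times the library background in control and 12.1 and 11.7 times in shCHD7-2. The region chr5:6633113-6634203 had fold enrichments of 5.71, 4.59, 6.62 and 6.63 with 19, 17, 19 and 23 reads. The other 3 lay at chr1:210406526-210407606, chr3:56590852-56591917 and chrX:53449017-53450188, with log2 changes of 0.25, 0.23 and 0.22. In pileup over library background all 5 changes were below 0, between -0.74 and -0.16, so the direction for these regions depended on the scale.

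A few wide regions hardly fell in pileup over library background, and the examples below had more reads at the summit in both shCHD7-2 lists. The examples in this paragraph were picked after their values were seen. In chr9:110512174-110513502 the summit held 13, 16, 33 and 28 reads, the only wide region besides chr3:72387664-72388749 (13, 10, 18 and 24 reads) whose mean log2 pileup over library background was higher in shCHD7-2, by 0.30 and 0.087. In both regions the groups overlapped on that scale. In chr7:61968706-61969723 the pileup over library background was 45.9, 45.1, 46.4 and 40.7 again with overlap, while fold enrichment was 12.6, 12.04, 12.9 and 13.4, slightly higher in both shCHD7-2 lists. Its summit held 42, 38, 65 and 66 reads, and it stood above percentile 98 in every list.

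The share of wide regions by chromosome is given without a test. Wide regions made up 38.0% of the regions called in all 4 lists on chromosome 6 (82 of 216, 95% Wilson interval 31.8% to 44.6%), 36.4% on chromosome 7 (91 of 250) and 35.3% on chromosome 4 (65 of 184). The share was 18.7% on chromosome 15 (14 of 75, 11.5% to 28.9%), 22.2% on chromosome 17 (10 of 45) and 22.4% on chromosome 19 (11 of 49). Chromosome 21 had 1 of 12, and chromosome 22 had 0 of 4. These are the highest and lowest of 23 chromosomes, and the interval of each except chromosome 15 included the overall share of 31.8%.

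The median change was below 0 on every chromosome that had wide regions. The median log2 change in fold enrichment ran from -0.47 on chromosome 15 (14 regions) to -0.15 on chromosome 17 (10 regions). In units of the library background the medians of these chromosomes were -1.42 and -0.95, and the lowest was -1.49 on chromosome 7 (91 regions). On chromosome X, with 39 regions, the changes were -0.31 and -1.04.

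The distance to other regions depended on which regions were counted. The median gap from a wide region to the nearest other region was 43.7 kb, against 33.5 kb for narrower regions, and 151 wide regions (13.99%) had another region within 10 kb, against 514 (22.2%). To the nearest other region called in all 4 lists the order was reversed, with medians of 154 kb for wide and 168 kb for narrower regions, although 30 wide regions (2.78%) had such a region within 10 kb, compared with 108 narrower ones (4.66%). Peaks that overlap are joined by the merge, so those inside a wide region do not count as its neighbours.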

How the data were processed

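ATAC-seq peaks of 2 control and 2 shCHD7-2 libraries of RKO cells were used, 1 list per library, grouped and numbered by sample title. The submitters' processing notes name Bowtie2 2.2.5, SAMtools 1.9, MACS2 2.1.2, deepTools 3.3.0 and hg19 without their roles. The Tn5 shift, removal of duplicates and fragment extension are not given in the sources used here, and each would change which positions reach the threshold and the recovered depth. The values deposited by the authors for each peak were a ratio (fold enrichment at the summit), the −log10 p and −log10 q, and a score, which for 99.97% of peaks was 10 times the −log10 q without its decimals.

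A whole pileup k and a background b were solved from fold enrichment, (k + 1) / (b + 1), and the Poisson chance of exceeding k, and the solution matched the deposited −log10 p to 0.001 in 100% of 41263 peaks. The recovery and merging were tested on simulated data. The library background is proportional to depth only if reads were extended alike. Peaks on scaffolds (56) were left out. A region's value in a list is that of its peak with the highest −log10 p. Medians over regions were compared between libraries by exact two-sided permutation tests over 6 assignments. Widths, coverage, counts of regions and correlations were described without a test, and height is not independent of the rule, since tall peaks are wider.

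The named regions were the 10 widest, the 10 of highest mean percentile, the 5 lowest and 5 highest changes in fold enrichment without overlap, and the 3 on each side of the width limit. Members, lists and rules were chosen with earlier results of these data known. Alternatives were a −log10 q of at least 5, joining by 50% of the shorter peak, a limit of 1500 bp, lists of equal length, each library left out, a replicate block, other measures of width, other scales, scaffolds included, and the mean over regions. The software was SciPy 1.17.1, NumPy 2.4.6 and pandas 2.3.3 under Python 3.11.15, with matplotlib 3.10.9 for plots.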

Additional observations from a re-analysis of the deposited data

How the results depend on the processing

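Fold enrichment, pileup over library background and percentile rank in wide regions kept their direction, lower in shCHD7-2, in each alternative tried, and their permutation p stayed at the smallest the design allows, which says nothing of stability. The log2 change in fold enrichment ran from -0.38 to -0.31. At a −log10 q of 5 or more there were 689 wide regions, of which 518 were lower in both shCHD7-2 lists, and the difference in covered share was -19.0 points. With a limit of 1500 bp these values were 94, 66 and -28.9, since fewer regions qualify. Chosen by the mean bases covered, 227 regions were wide. Spans of 1 group alone were added after seeing the data: by the shCHD7-2 span 486 regions were wide, 362 were lower and the covered share differed by -10.9 points, and by the control span it differed by -27.6 points. Leaving out 1 library gave -29.4 to -23.6 points, with no test. The difference between wide and narrower regions in log2 fold enrichment turned from -0.028 to 0.044 at 1500 bp, 0.029 with lists of equal length, 0.033 by mean bases covered and 0.013 by the shCHD7-2 span, with exact permutation p from 0.333 to 1.0 over its alternatives, and the cause was not tested. With scaffolds included there were 1082 wide regions.

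With the replicate number as a replicate block the change in fold enrichment was -0.38 (p = 0.5 by an exact sign-flip test, which 2 pairs cannot go below), and the block changed no other call. The differences between replicates 1 and 2 in log2 fold enrichment were not correlated between the groups (r = -0.04 across 1079 regions, which are not independent replicates). This correlation does not see an offset common to a whole library, and single regions carry much replicate noise. Whether same-numbered libraries share a batch or culture cannot be judged from it. In wide regions the chi-square of summit reads between replicates, divided by its degrees of freedom, was 0.619 in control and 0.534 in shCHD7-2, below the value of 1 that independent counts give. Their lists still held unlike numbers of peaks and backgrounds, and all 4 libraries were kept.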
